A study of Mus musculus with 3 samples.

Results

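Cell division in the Mesp1 lineage of early mouse embryos is described here through 39 genes of the cell cycle. They fall into 19 S genes, which act at the entry into DNA synthesis or during it, and 20 G2/M genes, which act between the end of synthesis and the separation of the daughter cells. They were chosen by symbol, with earlier results of these data known, from the 51923 genes of a deposited matrix of unique molecular identifier (UMI) counts for 14777 cells. Every member had UMIs, and all 39 passed the filter on low counts in each comparison below except the comparison of genotypes within paraxial cells, which tested 18 of the 19 S genes.

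The cells came from C57BL/6 mouse embryos that carried Mesp1-Cre, the red reporter Ai9 (tdTomato) and a floxed Wls gene, and only reporter-positive cells were sorted. Controls were Wls fl/+ and mutants were Wls fl/fl, so both genotypes carried the Cre, the reporter and at least 1 floxed allele. Mesp1-Cre is active in early mesoderm, so recombination covers heart, endothelium, blood and much of the anterior mesoderm together, and reporter-negative cells were not measured. Of the sorted cells, 91 were positive for a neural list (Sox2 in 94.5% of them), 29 for an endoderm or epithelium list (Epcam in 100%) and 24 for a neural crest list, each by at least 3 markers. Wls encodes a membrane protein needed for the secretion of Wnt ligands. Embryos were staged, tagged with lipid-anchored MULTI-seq barcodes and pooled, and the cells that share a sequencing run, a barcode, a stage and a genotype are called a sample. Whether 1 barcode stands for 1 embryo is not stated, so p-values measure the spread between these samples, which may in part be technical.

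There were 22 samples, 12 control and 10 mutant. E8.0 had 3 control and 3 mutant samples, all in run 1. E8.5 had 2 control samples and 1 mutant sample, all in run 2. E9.5 had 6 samples of each genotype over runs 1, 2 and 3, and 1 control sample of 28 cells was labelled E7.5. Samples held 6 to 2508 cells, and the median cell had 21739 UMIs, with run medians of 23112, 23555 and 11866. Per-sample levels are given as CPM, a gene's UMIs relative to all UMIs of its sample, for samples of at least 20 cells, which leaves out an E9.5 control of 6 cells in run 2, and group values are mean ± SD over samples.

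Some features of the samples bear on all results. Wls, the targeted gene, had 54.1 to 65.4 CPM in E8.0 controls and 7.25 to 14.2 in E8.0 mutants, and 35.9 to 46.1 CPM in E9.5 controls and 8.54 to 12.1 in E9.5 mutants, so the labels and the targeted gene went together. By Xist and Y-linked UMIs the E8.0 mutant samples held 98.3% to 99.1% male cells and the E8.0 controls 2.16% to 53.1%, so sex and genotype were nearly confounded at that stage. At E9.5 the range was 1.74% to 95.3% in controls and 2.67% to 100% in mutants. The E9.5 mutant of run 2 held 57 cells and lay apart from the other mutants for many G2/M genes. Cell barcodes shared between runs numbered 23.

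In the cell cycle, cyclin E with its kinase, the loading factors Cdc6 and Cdt1 and the Mcm helicase start replication, which then draws on enzymes of nucleotide supply and on fork proteins such as Pcna. Cyclins A and B with Cdk1, the Aurora and Polo-like kinases, kinesins and kinetochore proteins carry the cell through mitosis, and Cdc20 and Ube2c serve the ubiquitin ligase that ends it. E2F factors drive S genes through E2F sites in their promoters, and the DREAM and MuvB complexes act on G2/M promoters through the cell cycle genes homology region (CHR), often near CCAAT boxes. In early mesoderm most progenitors divide fast, and cardiomyocytes slow as they mature.

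RefSeq promoter windows of build GRCm38.p6, from 250 bases before to 50 after the start of a gene, were matched for 33 of the 39 members. The sequences below are shown because the S and G2/M members differ in these motifs. Each is 60 bases of the strand of the gene, 5′ to 3′, and the capitals mark a match to an E2F motif (TTTCCCGC, TTTGGCGC or TTTCGCGC) in 3 S genes or to the CHR (TTTGAA) in 4 G2/M genes, in either orientation.
Cdc6 (chr11:98907987-98908046, plus strand): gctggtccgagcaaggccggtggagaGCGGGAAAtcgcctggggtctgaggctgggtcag
Mcm6 (chr1:128359719-128359778, minus strand): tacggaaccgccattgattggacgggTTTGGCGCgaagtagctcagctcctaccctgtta
Mcm5 (chr8:75109330-75109389, plus strand): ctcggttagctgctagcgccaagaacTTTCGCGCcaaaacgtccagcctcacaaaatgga
Cdc20 (chr4:118437344-118437403, minus strand): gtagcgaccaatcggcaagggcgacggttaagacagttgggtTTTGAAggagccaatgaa
Cdk1 (chr10:69352913-69352972, minus strand): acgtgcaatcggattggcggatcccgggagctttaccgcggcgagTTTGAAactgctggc
Ube2c (chr2:164769869-164769928, plus strand): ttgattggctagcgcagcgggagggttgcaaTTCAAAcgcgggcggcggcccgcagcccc
Top2a (chr11:99024190-99024249, minus strand): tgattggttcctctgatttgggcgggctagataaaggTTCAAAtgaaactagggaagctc

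Over both strands the CHR letters were found for 12 of 17 G2/M genes (70.6%), for 3 of 16 S genes (18.8%) and in 17.9% of all 32851 windows. A member gene counted once if any of its windows matched, while the share over all windows counted each window. An E2F motif was found for 7 of 16 S genes (43.8%), for 1 of 17 G2/M genes (5.88%) and in 1.84% of all windows. The 3 E2F words can overlap each other, as they do in Mcm5. CCAAT, searched on both strands, was found for 11 S genes (68.8%) and 15 G2/M genes (88.2%), against 37.4% of all windows. These are matches of letters and not measured binding sites.

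The labels S and G2/M were checked against the cells themselves with other genes. In each of the 9 control samples with at least 100 cells of at least 5000 UMIs, cells were thinned to 5000 UMIs and split by the summed UMIs of 28 other S genes and 37 other G2/M genes, none of them members. Cells in the top 25% for the G2/M list but not the S list numbered 1933, and those in the top 25% for the S list but not the G2/M list numbered 1874. All 19 S members had a lower mean level, and all 20 G2/M members a higher one, in the G2/M-high than in the S-high cells, so the split of the members matched the phase order of the other genes. Since the lists and the members share depth and cells, this is a description with no test.

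The members separated the bins to different degrees. Ccne2, the second cyclin E, had 58.3 CPM in S-high and 14.995 CPM in G2/M-high cells, a mean log2 ratio of −1.88 (SD 0.71, n = 9). The loading factor Cdc6 had a ratio of −1.66 (SD 0.70) and Ccne1 of −1.18 (SD 0.29). By contrast Rrm1, the large subunit of ribonucleotide reductase, had a ratio of −0.15 (SD 0.26), and Tyms, which makes thymidylate, −0.16 (SD 0.16), so these hardly told the bins apart. Among G2/M members the widest ratios were those of the spindle protein Nusap1 (35.4 against 172 CPM, log2 2.24, SD 0.37) and of Ube2c (199 against 903 CPM, log2 2.17, SD 0.40). Birc5, a subunit of the chromosomal passenger complex, had a ratio of 0.35 (SD 0.21) and Ccna2, cyclin A2, 0.37 (SD 0.35).

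**Figure D1:**
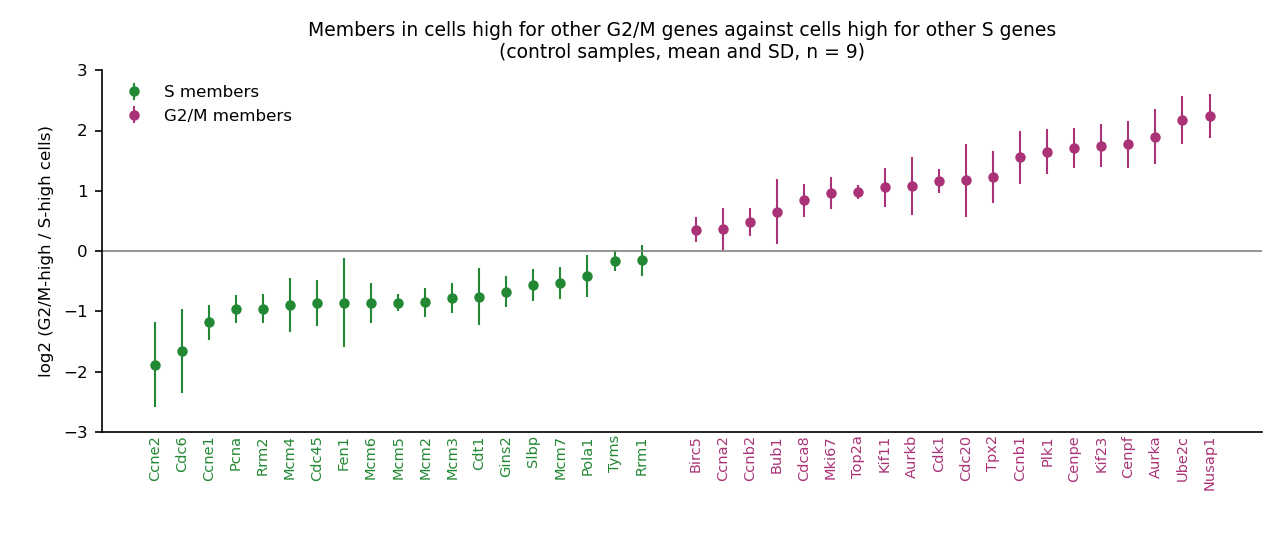
Mean log2 ratio (vertical axis, bars SD, n = 9 control samples) of each member's CPM in G2/M-high against S-high cells, with 19 S members on the left and 20 G2/M members on the right. All S members lie below 0, from Ccne2 at −1.88, and all G2/M members above it, up to Nusap1 at 2.24.

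The first comparison asked how loss of Wls relates to these genes at E9.5, the stage with the most samples. Ccne1, Rrm2, Tyms, Rrm1 and Cdc6 of the S members and Aurka, Plk1 and Cdc20 of the G2/M members were lower in mutants. By edgeR's quasi-likelihood test with run as a term (n = 12, Benjamini-Hochberg adjustment over 17227 genes), 5 of 19 S members and 3 of 20 G2/M members were lower and none was higher, where 4.55% of all genes tested were lower. The median log2 change was −0.29 for S members and −0.18 for G2/M members, against 0.02 for all genes.

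Ccne1 (cyclin E1, chromosome 7, 38097984 to 38107534, minus strand), whose product starts S phase with Cdk2, moved most. The E9.5 controls had 111 and 111 CPM in run 1, 117 in run 2 and 81.7 and 86.5 in run 3. In E9.5 mutants the lowest value was 31.3, the median 51.8 and the highest 81.6 CPM. The highest mutant lay just below the lowest control, and within each run all mutants lay below all controls. The group means were 101 ± 16.0 (n = 5) and 54.1 ± 16.4 CPM (n = 6), and the log2 change was −0.93 (SE 0.15, adjusted p = 0.0019). It was the only member whose groups did not overlap at E9.5, where 0.912% of all genes had every mutant below every control.

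Rrm2, Tyms, Rrm1 and Cdc6 were also lower. Rrm2 (chromosome 12, 24708241 to 24714146, plus strand), the small subunit of ribonucleotide reductase, had 328 and 342 CPM in run 1, 317 in run 2 and 201 and 226 in run 3 in controls. The mutants had 185, 269 and 185 CPM in run 1, 90.5 in run 2 and 145 and 190 in run 3. Run 3 was low in both genotypes, so the groups overlapped across runs, but within each run the mutants lay below the controls (log2 −0.75, SE 0.16, adjusted p = 0.0098). Tyms (chromosome 5, 30058202 to 30073617, minus strand) had 189 to 225 CPM in controls and a lowest, median and highest value of 106, 162 and 193 CPM in mutants, which overlapped only in run 3 (log2 −0.45, SE 0.10, adjusted p = 0.011). Rrm1 (log2 −0.31, SE 0.09) and Cdc6 (log2 −0.31, SE 0.09) both had an adjusted p of 0.038.

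The G2/M members that were lower were Aurka, Plk1 and Cdc20. Aurka (chromosome 2, 172356190 to 172370535, minus strand), the centrosome and spindle kinase Aurora A, had 86.1 and 89.99 CPM in run 1, 117 in run 2 and 71.2 and 86.2 in run 3 in controls, and 51.7 to 73.5 with a median of 66.8 CPM in mutants (log2 −0.45, SE 0.11, adjusted p = 0.016). Within each run its mutants lay below its controls. Plk1 (chromosome 7, 122159439 to 122169873, plus strand), the Polo-like kinase of mitotic entry, had 60.7 to 95.1 CPM in controls and 31.3 to 73.1 in mutants with a median of 65.2 (log2 −0.52, SE 0.13, adjusted p = 0.018). Cdc20, the activator of the anaphase-promoting ligase, had 141 to 212 CPM in controls and 57.1 to 187 in mutants with a median of 146 (log2 −0.53, SE 0.16, adjusted p = 0.049). For Plk1 and Cdc20 the genotypes overlapped in run 3.

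In contrast, Top2a, the topoisomerase that untangles chromosomes, had 446 ± 62.0 CPM in E9.5 controls and 494 ± 110 in mutants (537 ± 29.6 without the mutant of 57 cells in run 2, which had 276), and Nusap1 94.7 ± 7.92 and 97.5 ± 16.9, and neither passed the test. Ccne1, Rrm2, Tyms and Aurka kept their call in all 12 fits that left out 1 sample. Plk1 lost it without either control of run 1, with an adjusted p of at most 0.055, and Rrm1, Cdc6 and Cdc20 kept it in 4, 3 and 2 of the 12 fits. When libraries were scaled to their totals in place of TMM factors, a normalization that sets the bulk of genes equal, 2 S members (and no G2/M member) were lower at E9.5, where 1.43% of genes were. That scaling also moved the calls over all genes from 983 higher and 783 lower to 705 and 247, which is 74.1% higher against 55.7%.

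**Figure D2:**
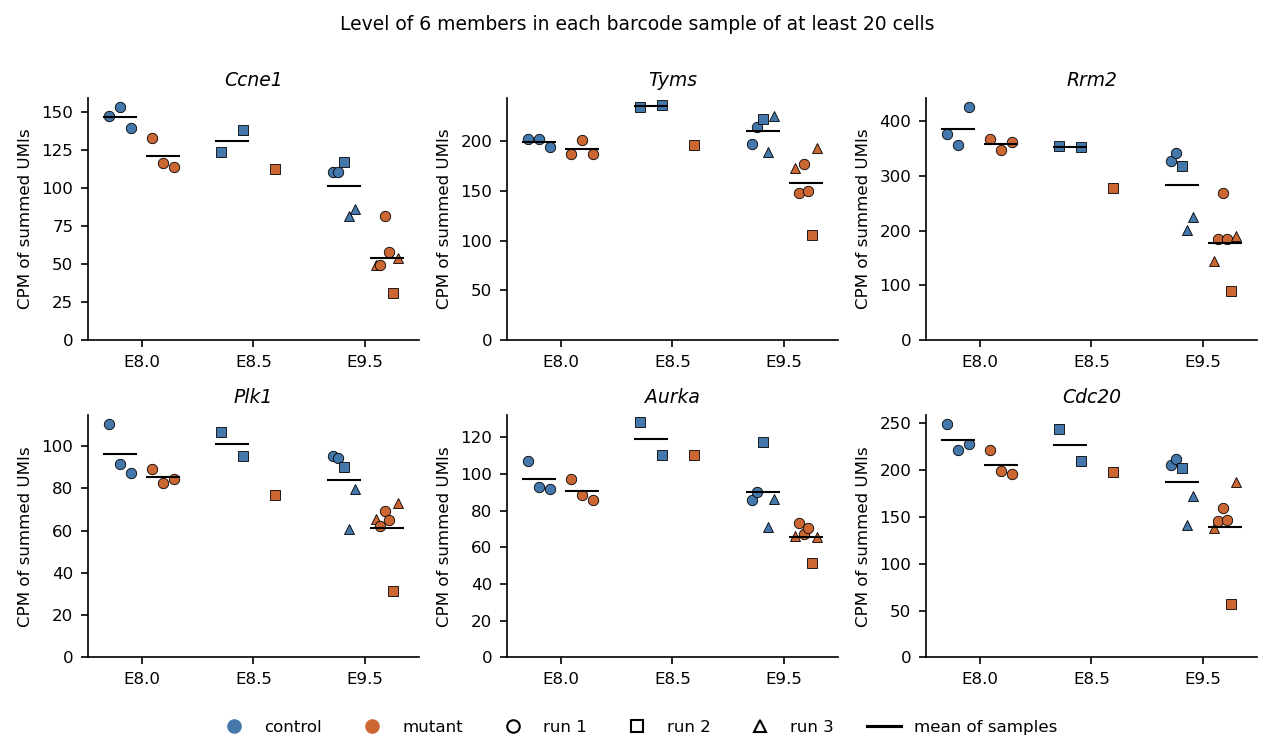
CPM of 6 members (vertical axes from 0) in each sample of at least 20 cells by stage and genotype, with the run as the marker shape and lines at group means. At E9.5 the mutant points of Ccne1 reach 81.6 CPM and the control points start at 81.7, while the other 5 genes overlap between genotypes.

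At E8.0 the same direction was seen in small differences, none of which passed. Of 16416 genes tested, 4 were called (0.0244%), and no member was among them by edgeR or by DESeq2. At an unadjusted p under 0.05 there were 8 S and 4 G2/M members, all with a lower mutant level, and 9.84% of all genes in either direction. Ccne1 had 147, 153 and 140 CPM in controls and 133, 117 and 114 in mutants (log2 −0.36, SE 0.09, adjusted p = 0.50). Ccna2, which pairs with Cdk2 in S phase and with Cdk1 later, had 197, 175 and 178 CPM in controls and 160, 159 and 159 in mutants (log2 −0.28, adjusted p = 0.50), and Cdc20 had 249, 221 and 228 against 221, 199 and 196 CPM.

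For Ccne1, Ccna2, Mcm2, Mcm5, Pcna and, by a narrow margin, Cdc20 every E8.0 mutant lay below every control, and for Top2a (441, 437 and 458 against 482, 486 and 486 CPM) every mutant lay above. Over all genes, 3.67% had every mutant below and 12.5% every mutant above. The medians of the S and G2/M members were −0.14 and −0.10, and −0.06 and −0.02 with library totals, which put the median of all genes at 0.09. Cells positive for blood markers made up 18.6% ± 11.3 of E8.0 control and 7.22% ± 3.47 of E8.0 mutant cells (n = 3 each), and cells positive for cardiomyocyte markers 12.8% ± 3.92 and 16.5% ± 2.76. Their part in these differences was not tested, and sex cannot be told apart from genotype here.

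With all stages in 1 model (stage and run as terms, n = 22, 20831 genes), 8 of 19 S and 6 of 20 G2/M members were lower in mutants and none was higher, where 5.77% of all genes were lower. The medians were −0.24 and −0.15. Beyond the genes above, those that passed were the helicase subunits Mcm2 (−0.28, adjusted p = 0.027) and Mcm7 (−0.24, adjusted p = 0.018), the sliding clamp Pcna (−0.28, adjusted p = 0.036), Ccna2 (−0.30, adjusted p = 0.013), the mitotic cyclin Ccnb1 (−0.27, adjusted p = 0.024) and Cdca8, a partner of Birc5 and Aurkb (−0.21, adjusted p = 0.047).

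Ccne1, Tyms, Rrm2, Cdc6, Ccna2, Cdc20, Plk1 and Aurka passed in all 22 fits that left out 1 sample. The E7.5 control was alone in its stage term and so did not inform the genotype value. Leaving it out gave 8 S and 6 G2/M members lower, as in the full fit. Pcna kept its call in 13 of the 22, Cdca8 in 7, Rrm1 in 17, Mcm2 and Ccnb1 in 20 and Mcm7 in 21. The number of members that passed ranged from 8, without 1 of the run 1 controls at E9.5, to 19. It was 0 without the E9.5 samples and 0 in run 1 alone (n = 11), where 0.00569% of genes were lower at the adjusted threshold. In run 1 the log2 value of Ccne1 was −0.54 (adjusted p = 0.070) and that of Rrm2 −0.37 (adjusted p = 0.081). The number was 5 with the share of male cells as a covariate (1.94% of genes lower) and 6 (4 S and 2 G2/M) with library totals (1.64%). Library totals also turned the calls over all genes from 43.7% to 77.0% higher, 1146 against 342. Without the cells positive for cardiomyocyte markers, 5 S and 5 G2/M members were lower, where 4.54% of genes were. Pola1, the X-linked catalytic subunit of polymerase alpha, stood apart from the other S members, with 44.5 to 53.0 CPM in E9.5 controls and 45.3 to 58.3 in mutants and no call.

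Whether the genotype difference changed between E8.0 and E9.5 was tested with an interaction term (n = 18, 17872 genes, 0.464% of genes called). No member passed by edgeR or DESeq2, with 4 S and 0 G2/M members, and 11.5% of all genes, at an unadjusted p under 0.05 by edgeR. Ccne1 had an interaction of −0.56 (SE 0.22, adjusted p = 0.31), Rrm2 of −0.56 (SE 0.22, adjusted p = 0.33) and Cdt1 of 0.34 (SE 0.12, adjusted p = 0.28). The G2/M members with the smallest p included Aurka (−0.26, SE 0.16, adjusted p = 0.55) and Plk1 (−0.26, SE 0.19, adjusted p = 0.65). A larger genotype difference at E9.5 than at E8.0 was therefore not shown for any member.

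**Figure D3:**
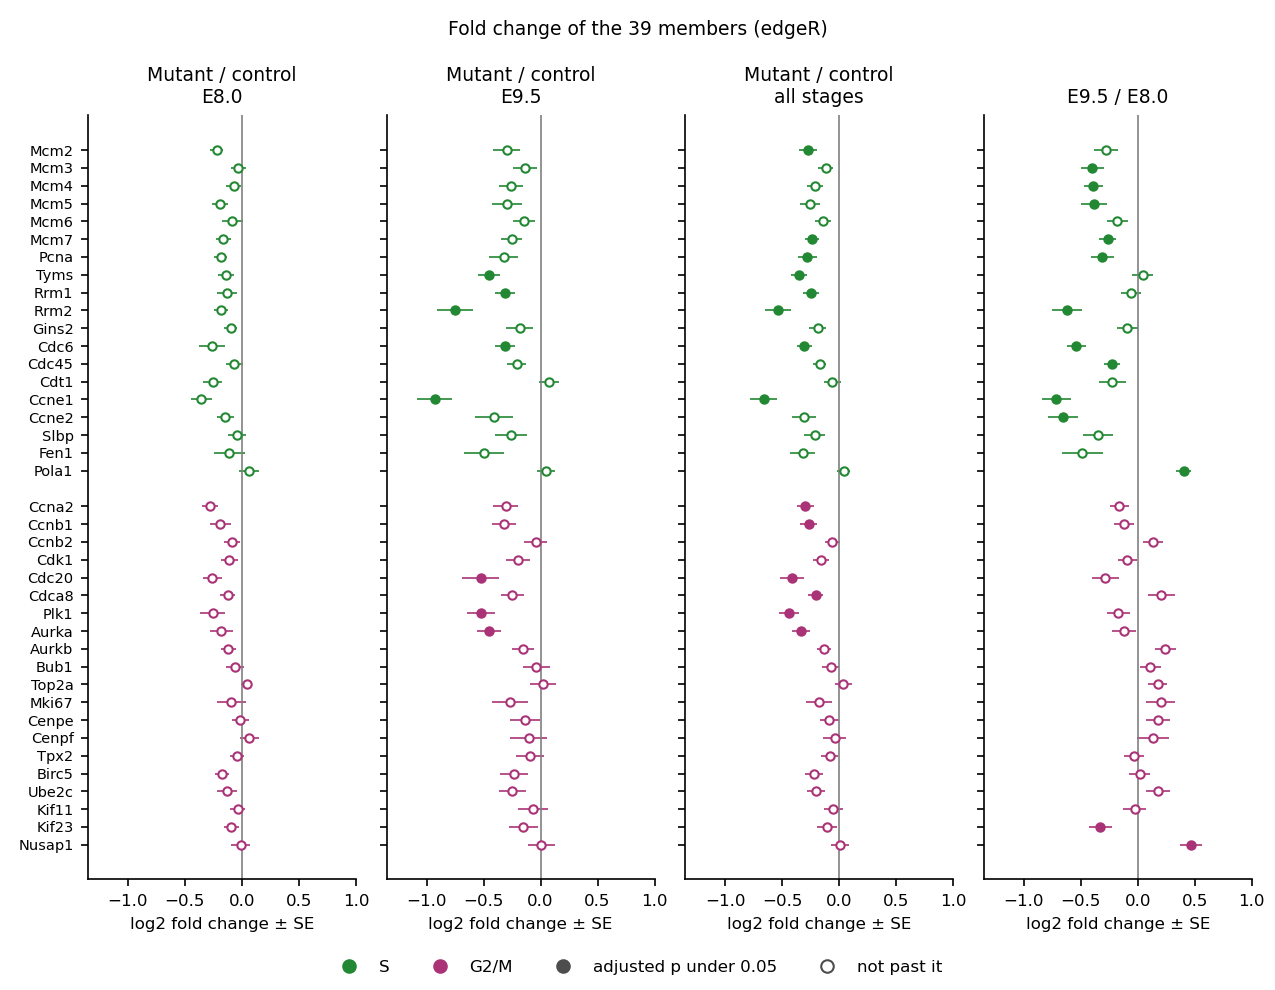
Log2 fold change ± SE of the 39 members for mutant against control at E8.0, at E9.5 and over all stages, and for E9.5 against E8.0, with filled points for an adjusted p under 0.05. Filled points in the genotype panels lie left of 0, reaching −0.93 for Ccne1 at E9.5, and E8.0 has none.

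Of the other genes of the pathway few passed. Over all stages, where 5.77% of all genes were lower in mutants and 4.47% higher, 5 of 28 other S genes were lower, among them the replication protein Rpa2 (−0.36), the nuclease Exo1 (−0.29) and the primase Prim1 (−0.25). Of 37 other G2/M genes, 2 were higher (Hjurp 0.39, G2e3 0.27) and 3 lower, with the tubulin Tubb4b at −0.41. Of 24 regulators, 2 were lower, E2f4 (−0.40, SE 0.07, adjusted p = 0.0015) and its dimer partner Tfdp1 (−0.29, adjusted p = 0.025). At E9.5 alone, where 4.55% of all genes were lower and 5.71% higher, E2f4 (−0.47), E2f3 (−0.31) and Tfdp1 (−0.40) were lower and the retinoblastoma gene Rb1 (0.73) higher, while none of the 28 other S genes passed. Of the other G2/M genes, Tubb4b (−0.53) and Gas2l3 (−0.39) were lower at E9.5 and G2e3 (0.43) higher.

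Summed levels can hide how cells are spread, so the members were also summed in each cell after thinning to 5000 UMIs, which left out 447 shallower cells, 365 control and 82 mutant. The mean sum of S members was 15.6 ± 0.09 UMIs per cell in E8.0 controls and 15.2 ± 0.30 in E8.0 mutants (n = 3 each), and 13.0 ± 2.53 (n = 5) and 10.6 ± 2.02 (n = 6) at E9.5. For the G2/M members it was 18.7 ± 0.48 and 18.3 ± 0.40 at E8.0, and 18.2 ± 1.91 and 16.0 ± 3.01 at E9.5. The SD at E9.5 spans 3 runs. Within run 1 the S sums were 14.5 and 15.6 in controls and 10.9, 13.2 and 11.2 in mutants, and in run 2 they were 13.9 in the control and 7.18 in the mutant, so that the mutants were lower in both runs. In run 3 they were 9.34 and 11.5 in controls and 9.58 and 11.3 in mutants, which overlapped. The G2/M sums were 18.3 and 18.6 in controls and 17.2, 16.6 and 16.2 in mutants of run 1, and 20.6 and 10.04 in run 2. In run 3 they were 15.3 and 18.1 in controls and 17.3 and 18.5 in mutants, which overlapped. Without the mutant of 57 cells in run 2, the mutant mean at E9.5 was 17.2 for G2/M and 11.2 for S members. In run 1 at E9.5, cells positive for blood markers made up 8.18% and 8.32% of controls and 18.75%, 10.3% and 16.3% of mutants. For paraxial markers it was 10.3% and 10.99%, against 4.86%, 7.14% and 5.75%. Without blood-positive cells, the run 1 S sums were 14.9 and 15.96 in controls and 11.5, 13.4 and 11.8 in mutants. In run 3 blood shares were 32.5% and 18.5% in controls and 10.4% and 10.3% in mutants. The part of class shares in these sums was not tested. In such thinned cells Ccne1 had a UMI in 37.2% ± 4.61 of E9.5 control and 19.8% ± 6.62 of mutant cells, and the early mesoderm has no class that should lack the gene to set a background share.

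The low end of the distribution was described by a share of cells. Cells with under 5 UMIs of the 20 G2/M members among 5000, called low-G2/M cells, were 1.09%, 3.42% and 2.64% of cells in E8.0 controls and 5.36%, 6.99% and 5.18% in E8.0 mutants. All 3 mutant samples lay above all 3 controls, with means of 2.38% ± 1.19 and 5.84% ± 1.00. At E8.5 the larger control had 5.82% (exact 95% binomial interval 4.89% to 6.86%, counting error only) and the mutant 10.7% (7.99% to 14.0%).

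At E9.5 the controls had 4.90% and 4.65% in run 1, 3.95% in run 2 and 13.1% and 9.28% in run 3. The mutants had 15.3%, 9.77% and 16.7% in run 1, 46.9% in run 2 (the sample of 57 cells) and 20.9% and 10.3% in run 3. Every mutant exceeded the controls of its run in runs 1 and 2, and the genotypes overlapped in run 3. The means were 7.18% ± 3.93 (n = 5) and 20.0% ± 13.8 (n = 6), a difference of 12.8 percentage points that was 7.41 without the sample of 57 cells. The threshold was set after the values were seen and the comparison carries no test. Low-G2/M cells were somewhat shallower before thinning, with median UMIs of 12782 against 16591 for the other cells in E9.5 mutants and 15002 against 19789 in E9.5 controls, and their part in the difference was not tested. Mitochondrial shares were alike, at 1.53% and 1.48% in the mutants and 1.89% and 1.87% in the controls.

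**Figure D4:**
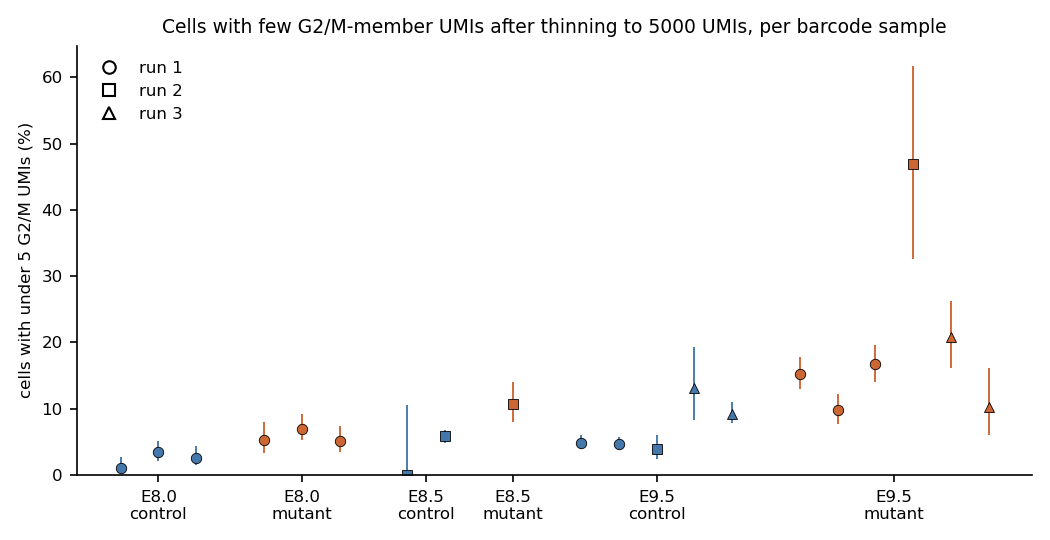
Percent of cells with under 5 UMIs of the 20 G2/M members after thinning to 5000 UMIs (vertical axis) in each sample, by stage and genotype, with run as marker shape. The E8.0 mutant samples lie at 5.18% to 6.99%, above the controls at 1.09% to 3.42%, and the E9.5 mutant at 46.9% is the sample of 57 cells.

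At E8.0 most low-G2/M cells carried cardiomyocyte markers. Cells were placed in a class when at least 3 markers of 1 fixed list had a UMI after thinning, and cells positive for several lists were left out. Classes carry the name of their list, such as endothelial (Pecam1, Cdh5, Kdr and others), paraxial (Meox1, Tcf15, Pax3 and others), posterior second heart field (Tbx5, Hoxb1, Osr1 and others), lateral plate or allantois (Tbx4, Hand1, Bmp4 and others) and blood (Alas2, Gata1, Klf1 and others). Cells positive for cardiomyocyte markers (Tnnt2, Tnni1, Myl7, Myl4, Actn2, Ttn, Myh6 and Myh7, thin-filament, myosin and sarcomere genes) made up 72.5% of the low-G2/M cells of E8.0 controls and 72.7% of those of E8.0 mutants. At E9.5 they made up 35.0% and 28.1% of the low-G2/M cells, and cells with no list 32.9% and 36.8%. Of the cardiomyocyte-positive cells themselves, 13.9% ± 8.97 were low in E8.0 controls and 26.5% ± 5.77 in mutants (n = 3 each), and 26.6% ± 6.40 and 38.5% ± 7.20 at E9.5 (n = 5 each). The samples overlapped at both stages, with controls of up to 24.3% and mutants from 22.1% at E8.0, and controls of up to 34.8% and mutants from 29.4% at E9.5. At E8.0, 0 of 288 control and 0 of 119 mutant blood-positive cells, pooled over samples, were low. Taking 3 counts as the limit of a count of 0, this allows shares of up to 1.04% and 2.52%, for counting error only.

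In other classes the mean low-G2/M share at E9.5 was smaller than in cardiomyocyte-positive cells. Among blood-positive cells it was 7.01% ± 6.69 in controls (n = 5, from 0.685% to 15.4%) and 10.7% ± 4.31 in mutants (n = 4, from 5.63% to 14.3%), which overlapped. Among paraxial cells at E9.5 it was 0.526% ± 0.608 in controls (n = 4) and 9.18% ± 4.45 in mutants (n = 3). Cells with no list had 3.91% ± 1.14 (n = 5) and 14.6% ± 13.7 (n = 6), a wide spread that the sample of 57 cells set at its upper end with 40.7%. Among posterior second heart field cells the values were 5.40% ± 2.83 (n = 4) and 13.2% ± 7.07 (n = 3), which overlapped. Lateral plate or allantois cells had 14.4% ± 7.17 in E9.5 controls (n = 2) and 28.6% in 1 mutant sample, and endothelial cells 2.22% ± 3.85 (n = 3) and 16.7% in 1. Earlier stages did not all share this direction. At E8.0 paraxial cells had 2.42% ± 0.41 in controls (n = 2) and 5.67% ± 6.03 in mutants (n = 3), which overlapped. Cells with no list had 0.419% ± 0.403 and 1.84% ± 0.244 there (n = 3 each). In posterior second heart field cells 1 of 126 E8.0 control and 0 of 94 E8.0 mutant cells were low, where 0 allows up to 3.19%, and at E8.5 3 of 71 and 0 of 24, where 0 allows up to 12.5%. Among endothelial cells 1 of 72 control and 0 of 112 mutant cells were low at E8.0 (0 allows up to 2.68%), and 3 of 43 and 1 of 22 at E8.5. These counts pool cells over samples and their limits cover counting error only, so they do not compare the genotypes. Among blood-positive cells 35 of 388 and 1 of 43 were low at E8.5, with 1 mutant sample and no test.

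The members were then compared between genotypes within each class, in samples with at least 20 cells of it. In cardiomyocyte-positive cells (n = 18, 0.201% of genes lower) Rrm2 (−0.64, SE 0.10, adjusted p = 0.0071) and Pcna (−0.36, SE 0.09, adjusted p = 0.043) were lower in mutants. Rrm2 had 304, 301 and 381 CPM in the cardiomyocyte-positive cells of E8.0 controls and 275, 251 and 255 in those of E8.0 mutants. At E9.5 it had 235, 230, 288, 204 and 176 CPM in controls and 112, 107, 137, 89.9 and 92.7 in mutants. The genotypes did not overlap at either stage, and Rrm2 passed in all 18 fits that left out 1 sample. Pcna passed in 6 of those 18, with an adjusted p of up to 0.15. Ccne1 in these cells had 89.7 ± 23.5 CPM in E9.5 controls and 35.1 ± 16.2 in mutants (n = 5 each), and 101 ± 26.9 and 92.7 ± 6.17 at E8.0 (n = 3 each), and over all stages it did not pass.

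In paraxial cells, the precursors of somite tissues (n = 14, 2.96% of genes called), Rrm2 was lower (−0.46, SE 0.11, adjusted p = 0.040) and Top2a (0.28, SE 0.07, adjusted p = 0.032) and Nusap1 (0.38, SE 0.10, adjusted p = 0.047) were higher. Rrm2 had 305 to 397 CPM in the 4 E9.5 control samples and 198 to 213 in the 3 mutant samples, with no overlap. At E8.0 the genotypes overlapped, with 415 and 509 CPM in controls and 448, 405 and 461 in mutants. These 3 calls were lost under a rule with 1 more marker, and leaving out 1 sample gave 0 to 6 calls. Rrm2 and Top2a lost theirs without any of 7 samples, the 2 E9.5 controls and the 3 E9.5 mutants of run 1 and both larger E8.5 samples, with an adjusted p of up to 0.17, and Nusap1 kept its call in 4 of 14 such fits, with an adjusted p of up to 0.18.

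No member passed between genotypes in blood-positive (n = 16, 0.0362% of genes called), endothelial-positive (n = 10, 0.00988%), posterior second heart field (n = 14, 0.436%) or lateral plate or allantois cells (n = 8, 0.105%) by edgeR. At an unadjusted p under 0.05 there were 4 S and 5 G2/M members in blood (7.83% of all genes), 4 and 3 in endothelial (8.8%), 4 and 3 in posterior second heart field (12.8%) and 3 and 4 in lateral plate cells (11.4%). Rrm2 had negative values in each of these 4 classes, from −0.11 (SE 0.09) in blood to −0.38 (SE 0.15) in posterior second heart field cells. Whether classes differ in their genotype effect was not tested.

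From E8.0 to E9.5 more S members were lower than higher, while few G2/M members passed. In a model of all samples with genotype as a covariate (n = 21), 10 of 19 S members were lower at E9.5, where 10% of all genes were lower, and 1 was higher, where 12.5% were. Of the G2/M members, Nusap1 was higher (0.47, SE 0.10, adjusted p = 0.0015) and the cytokinesis kinesin Kif23 lower (−0.33, SE 0.10, adjusted p = 0.026). The medians were −0.31 for S and 0.07 for G2/M members, against 0.00 for all genes.

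The S members that fell included Cdc6, Ccne1, Ccne2 and Rrm2, while Cdt1, Mcm2 and Mcm6 did not pass. Cdc6 had 60.7, 61.7 and 57.1 CPM in E8.0 controls and 43.7, 46.2, 40.9, 27.6 and 34.0 in E9.5 controls, with no overlap (log2 −0.54, SE 0.08, adjusted p = 0.00013). Ccne1 (−0.71, SE 0.13, adjusted p = 0.00054) and Ccne2 (−0.66, SE 0.13, adjusted p = 0.0015) fell together. Rrm2 (−0.62, SE 0.13, adjusted p = 0.0018) and the helicase subunits Mcm4 (−0.39, adjusted p = 0.0026) and Mcm3 (−0.40, adjusted p = 0.0086) also fell, as did Mcm5, Mcm7, Pcna and Cdc45. Pola1 went the other way, with 36.6, 44.9 and 41.4 CPM in E8.0 controls and 44.5 to 53.0 in E9.5 controls, which overlapped (0.40, SE 0.07, adjusted p = 0.00022).

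Since all E8.0 samples lay in run 1, the stage comparison was repeated within that run, where 11 S members were lower and 1 higher, and 5 G2/M members were lower and 3 higher. In that fit 15% of all genes were lower and 14.7% higher. With run as a term, 6 S members were lower (9.85% of genes) and Pola1 and Nusap1 higher (11.6% of genes). In control samples alone only Cdc6 passed (−0.52, with 1.74% of genes lower). With library totals, 14 S and 4 G2/M members were lower (16% of genes) and 1 of each higher (8.16%), the median of all genes was −0.12, and 33.8% of all calls were higher (1474 against 2891) in place of 55.4%.

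Rrm2 was lower at E9.5 than at E8.0 inside each of the 6 classes tested. These fits pooled both genotypes and had no run term. All E8.0 samples lay in the same run and most classes had E9.5 samples in several, so stage was not told apart from run there. Only in lateral plate or allantois cells did all E9.5 samples with at least 20 cells of the class lie in the run of the E8.0 samples. In cardiomyocyte-positive cells 12 S members were lower, where 9% of genes were (Rrm2 −0.86, SE 0.13, adjusted p = 6.8e-05), and in paraxial cells 6, where 3.04% were (Rrm2 −0.74). Lateral plate or allantois cells had 4 lower S members (6.85% of genes, Rrm2 −0.76), posterior second heart field cells 3 (6.36%) and endothelial cells only Rrm2 (3% of genes, −0.61, SE 0.14, adjusted p = 0.020).

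Blood-positive cells, whose kinds of blood cell were not told apart, had 9 lower S members (14% of genes lower). Ccne1 was at −1.03, Ccne2 at −0.97 and Rrm2 at −0.55, while Tyms was higher at 0.38. In the same cells 7 G2/M members were higher at E9.5, where 15.4% of genes were higher, among them Nusap1 (1.03), the proliferation antigen Mki67 (0.69) and Ccnb2 (0.59), and Cdc20 was lower. The summed G2/M UMIs per thinned blood-positive cell went the other way. In controls the sum was 18.2 ± 0.67 at E8.0 (n = 3) and 13.8 ± 2.22 at E9.5 (n = 5). In mutants it was 19.5 ± 1.52 (n = 2) and 13.7 ± 1.505 (n = 4). These thinned totals include globin UMIs. Globin transcripts made up a median of 8.74% of the UMIs of blood-positive cells at E8.0 and 36.7% at E9.5, which bears on any level scaled to a total, and their part was not tested in this comparison.

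E8.5 and E8.0 lay in different runs, and run could be set apart from stage only through the E9.5 samples, which lay in all 3 runs. Against E8.0, 7 G2/M members were higher at E8.5, where 9.15% of genes were higher, led by Nusap1 (0.65, SE 0.13, adjusted p = 0.0033), the chromosomal passenger kinase Aurkb (0.56, adjusted p = 0.0065) and Ube2c (0.59, adjusted p = 0.012), with Bub1, Cdca8, Cenpe and Birc5 after them. Of the S members, Gins2 and Pola1 were higher and Ccne2 (−0.68, adjusted p = 0.027), Cdt1 (−0.53) and Cdc6 (−0.38) lower, where 9.83% of genes were lower. With run as a term no member passed, and leaving out 1 sample gave 0 calls without the E8.5 mutant, 1 without the larger E8.5 control and 4 to 15 otherwise. Library totals left fewer members called, put the median of all genes at −0.21 in place of −0.03 and the share of higher calls at 24.98% in place of 48.2%.

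Between E9.5 and E8.5 no member passed by edgeR (0.0332% of genes called), with 5 S and 10 G2/M members, and 22.7% of all genes, at an unadjusted p under 0.05. By DESeq2 9 members were lower, where 1.81% of genes were. Without the E9.5 control of 608 cells in run 2, 5 S and 9 G2/M members were lower at E9.5 by edgeR, and without the E9.5 samples of 57 or 6 cells in that run 3 or 4 members were. Calls over all genes moved as well, with 0 to 1383 genes lower and 0 to 907 higher in the fits that left out 1 sample. The smallest adjusted p-values by edgeR were those of Gins2 (−0.48, adjusted p = 0.063), Ccne1 (−0.68, adjusted p = 0.063) and Aurka (−0.52, adjusted p = 0.065). The E7.5 control of 28 cells, of which 72% of the 25 deep enough to classify were blood-positive, had mean sums of 9.48 S and 17.1 G2/M UMIs per thinned cell.

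Within control samples, cells positive for a lineage list were compared with the other cells of the same sample, so that run and genotype were shared. Depth per cell was not shared, with a median over all samples of 28449 UMIs in blood-positive, 20908 in cardiomyocyte-positive and 23252 in endothelial-positive cells. Cardiomyocyte-positive cells (n = 9 samples) had more members lower than any other class under TMM, with 18 of 19 S and 15 of 20 G2/M members lower and none higher, where 25.2% of all genes were lower. The medians were −0.47 and −0.40. The S members with the smallest p were Slbp, which binds histone transcripts (−0.71, SE 0.07, adjusted p = 2.6e-07), Mcm5 (−0.68), Mcm6 (−0.50), Mcm3 (−0.49), Mcm7 (−0.48) and Pcna (−0.47). In the G2/M group they were Mki67 (−0.81, SE 0.11, adjusted p = 1.5e-05), Cdc20 (−0.72, SE 0.11, adjusted p = 5.6e-05), Aurkb (−0.60), Plk1 (−0.58), the spindle kinesin Kif11 (−0.50) and Ccna2 (−0.46).

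The members that did not pass in cardiomyocyte-positive cells were Ccne2 (0.06, SE 0.12) and 5 genes of G2/M, Ccnb2, Cenpf, Ube2c, Kif23 and Nusap1, with values from −0.14 to 0.06. Nusap1 and Ube2c were also the G2/M members with the widest ratio between G2/M-high and S-high cells. After thinning, the S sum was 10.7 ± 1.62 UMIs per cell in cardiomyocyte-positive and 14.4 ± 2.28 in the other cells, and the G2/M sum 15.6 ± 3.21 and 18.9 ± 1.30. With library totals fewer S and fewer G2/M members were lower than with TMM, and 59.8% of all calls were higher in place of 47.9%. The share of all genes lower in that fit is not given here, so it does not set the members apart from other genes. Other genes went along, with 24 of 28 other S genes lower (Cdca7 −0.96), 21 of 37 other G2/M genes lower and 11 of 24 regulators lower, among them Myc (−1.98), E2f5 (−0.84) and the phosphatase Cdc25a (−0.66).

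Endothelial-positive cells (n = 6) had calls in both directions. Over both directions the share of members called was near that of all genes, so the number of calls did not set the members apart. Ccne1 was much lower (−1.02, SE 0.10, adjusted p = 4.2e-07), and so were Mcm7, Mcm6, Rrm2, Gins2 and Slbp, where 17.9% of genes were lower, but Mcm3 was higher (0.49, adjusted p = 8.1e-06), where 14.3% were higher. Cdk1 (0.69, SE 0.07, adjusted p = 4.3e-07), the kinetochore motor Cenpe (0.34), the spindle factor Tpx2 and Plk1 were higher, and Cenpf and Ccnb1 lower. In lateral plate or allantois cells (n = 5) 8 S members were lower, where 9.9% of genes were, led by Ccne1 (−0.86, SE 0.10, adjusted p = 6.7e-05), Rrm2 (−0.46), Tyms (−0.41) and Pcna (−0.41). There Gins2 was higher (0.27), where 8.71% of genes were higher, and Nusap1 was the only G2/M member that passed (−0.56, adjusted p = 0.0053).

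The other mesodermal classes had few calls under TMM and more, mostly higher, with library totals. Paraxial cells (n = 7, 21.7% of genes called) had 5 calls, with Mcm7 and Aurkb higher and Mki67, Ccnb2 and Tpx2 lower. Posterior second heart field cells (n = 8, 20.4%) also had 5, with Mcm7, Rrm2 and Kif23 higher and Mki67 and Ccna2 lower. In anterior second heart field cells (n = 3, 8.97%) only Mki67 passed (−0.37, adjusted p = 0.0052). Against the other cells, Mki67 was lower in paraxial (−0.50), posterior (−0.33) and anterior second heart field cells and in cardiomyocyte-positive cells. With library totals it kept its call only in the cardiomyocyte-positive (−0.71) and paraxial (−0.37) cells. The other cells included blood-positive cells, in which Mki67 was higher (log2 1.24 without globin UMIs), and their part in these values was not tested. With library totals, paraxial cells had 14 members higher and 1 lower (25.1% of genes called), posterior second heart field cells 10 higher (21.6%) and anterior second heart field cells 3 higher (7.79%). Library totals raised the median of all genes by over 0.1 in these 3 mesodermal classes, to 0.10, 0.12 and 0.10, from −0.02, −0.03 and −0.11, and put the share of higher calls at 57.3%, 65.2% and 61.7% in place of 33.4%, 34.4% and 26.1%. For endothelial and lateral plate cells that share was 56.1% and 61.7% in place of 44.4% and 46.8%.

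In blood-positive cells (n = 9) the answer turned on the scaling, and these fits pooled stages that differed. With TMM, 15 S and 14 G2/M members were higher, where 30% of genes were higher, and Cenpf was lower, where 41.2% were. Cdc6 was at 1.13 (SE 0.07), Ccna2 at 0.78 (SE 0.05) and Mki67 at 1.58 (SE 0.14), and the medians were 0.41 and 0.31. With library totals 11 S and 15 G2/M members were lower and only Mki67 higher, the medians were −0.40 and −0.51, and 72.7% of all genes were lower with a median of −0.99. With globin UMIs taken out of the totals, 9 S members were higher and 3 lower, and 7 G2/M members were higher and 6 lower, with medians of 0.07 and −0.04. In that fit 18.6% of all genes were higher and 54.8% lower, with a median of −0.49. Of the 39 members, Mki67 was higher (1.24 without globin UMIs, adjusted p = 4.6e-07) and Cenpf lower (−0.67 without globin UMIs) under all 3 scalings, and the other 37 were not called in 1 direction under all 3. After thinning, the S sum at E8.0 was 16.7 ± 0.81 in blood-positive and 15.5 ± 0.06 in the other control cells (n = 3). At E9.5 it was 9.27 ± 2.51 and 13.9 ± 2.07 (n = 5). The G2/M sums were 18.2 ± 0.67 and 18.7 ± 0.79 at E8.0, and 13.8 ± 2.22 and 19.1 ± 1.90 at E9.5. Globin UMIs count in these thinned totals.

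**Figure D5:**
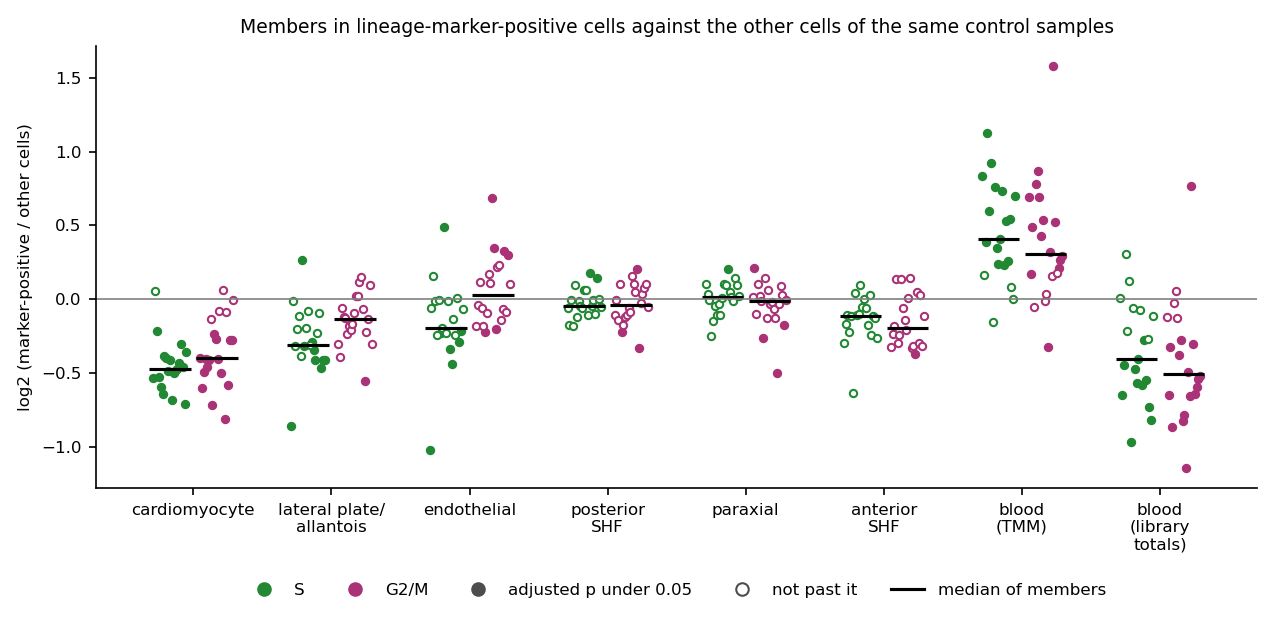
Log2 ratio of each member in cells positive for a lineage list against the other cells of the same control samples (vertical axis), with filled points for an adjusted p under 0.05 and bars at the median of the S and of the G2/M members. Cardiomyocyte-positive cells have medians of −0.47 and −0.40, and blood-positive cells turn from 0.41 and 0.31 with TMM to −0.40 and −0.51 with library totals.

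Rows of the matrix named as pseudogenes of members held 2381 UMIs for Ccnb2-ps against 38725 for Ccnb2, and 3765 for Pcna-ps2 against 96508 for Pcna. Those of Ccnb1, Tyms and Pcna-ps1 held 3, 7 and 1 UMIs, and how reads were shared between such copies is not given in the sources used here.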

How the data were processed

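The deposited matrix holds UMI counts per gene and cell, whole numbers with no normalization by the authors. Per the labels, reads were mapped with kallisto|bustools at its 10x v3 setting and MULTI-seq barcodes were demultiplexed by the authors, and the submitters' processing notes name GRCm38, kallisto, bustools 0.46.1 and Cell Ranger. Filters on cells are not given in the sources used here. The authors' per-cell table gave run, barcode, stage and genotype.

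UMIs were summed per sample. The two-sided quasi-likelihood test of edgeR 4.0.16 (R 4.3.3) was run with TMM factors after filterByExpr, and p-values were adjusted by Benjamini-Hochberg over every gene tested, at 0.05. DESeq2 1.42.0 served as an alternative. The genotype model had stage and run as terms, the stage model genotype, and the class model the sample as a block. The fits were tested on simulated data. Classes used cells thinned to 5000 UMIs and 3 markers (for blood also 2 markers other than globins). That rule, the low-G2/M threshold, the library-total scaling and the alternatives by class were chosen after seeing the data, and the members and lists with earlier results of these data known. Named genes were, per comparison, up to 6 passing members of each module by p, or the 3 of smallest p where none passed, with a few added after their values were seen. Doublets were not called here, and the 5% of cells with the most UMIs were left out as an alternative. Positions are from GENCODE M21 (GRCm38). Depth ranged from 895 to 102853 UMIs per cell.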

Additional observations from a re-analysis of the deposited data

Results flagged for a closer look

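Within groups of 4 to 10 samples, 9 of 84 groups had a highest or lowest sample that stood apart from the rest by Dixon's test at 95%, which chance gives in about 1 in 20 groups. Of these, 8 concern the same library, the E9.5 mutant of 57 cells in run 2. There Cdk1 had 145 CPM, with the nearest other mutant at 233, and Plk1 had 31.3 with the nearest at 62.2. Aurka had 51.7 CPM (nearest 65.6), Top2a 276 (nearest 515), Cenpe 72.2 (nearest 114) and Tpx2 90.5 (nearest 142). In the same library the summed G2/M UMIs per thinned cell were 10.0 (nearest 16.2) and the low-G2/M share was 46.9% (nearest 20.9%). The other case is Ccnb2 in the E9.5 controls, where the run 2 sample had 130 CPM and the nearest sample 117.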

How the results depend on the processing

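Values are numbers of the 39 members called. The share of all genes called also moved between such fits, so these counts show how the calls shift and are not set against that share. For genotype over all stages (14) they were 6 with library totals, 5 with the share of male cells as covariate, 0 in run 1 alone, 0 in run 2 alone, 1 in run 3 alone, 0 without the E9.5 samples and 8 to 19 when 1 sample was left out. For genotype at E9.5 (8) they were 13 by DESeq2, 13 with no filter on low counts, 2 with library totals, 4 in run 1 alone, 1 in run 3 alone, 1 in runs 2 and 3 together and 4 to 9 when 1 sample was left out. At E8.0 and for the difference of the genotype effect the count was 0 and stayed 0 to 0 in the fits that left out 1 sample, and the latter was 2 with no filter. For E9.5 against E8.0 (13) they were 20 with library totals, 20 in run 1 alone, 8 with run as a term, 1 in controls alone, 1 in endothelial, 6 in lateral plate, 6 in paraxial and 5 in posterior second heart field cells alone, and 10 to 19 when 1 sample was left out. Nusap1 turned to −0.062 in endothelial cells alone, and Kif23 to 0.030 in blood and 0.0077 in paraxial cells alone.

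For E8.5 against E8.0 (12) the counts were 5 with library totals, 7 with no filter, 0 with run as a term, where Cdca8 turned to −0.024, and 0 to 15 when 1 sample was left out. For E9.5 against E8.5 (0) they were 9 by DESeq2, 4 with samples of at least 20 cells, 1 without blood- and endothelial-positive cells, 1 without the 5% of cells with the most UMIs and 0 to 14 when 1 sample was left out. Between classes, thinning gave 0 in anterior second heart field (1), 3 in paraxial (5) and 3 in posterior second heart field cells (5), library totals 3, 15 and 10, and 1 more marker 2, 2 and 8. In mutant samples the counts were 7 in endothelial (13), 2 in lateral plate (10) and 3 in posterior second heart field cells. In blood-positive cells the S median turned to −0.40 and the G2/M median to −0.51 with library totals, the G2/M median to −0.039 without globin UMIs, and Ccna2 to −0.029 with library totals. Genotype within paraxial cells (3) gave 0 with 1 more marker and 0 to 6 when 1 sample was left out, within cardiomyocyte-positive cells (2) 1 to 4 and within lateral plate cells (0) 0 to 0.

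The share of E9.5 control cells with a Ccne1 UMI (37.2%) was 68.3% without thinning and 55.0% at 10000 UMIs. The difference in low-G2/M share at E8.0 (3.46 percentage points) was 1.70 under 3 UMIs, 6.10 under 8 UMIs and 2.81 to 3.98 when 1 sample was left out, and at E9.5 (12.8) it was 7.27 under 3 UMIs and 7.41 to 14.8 when 1 sample was left out. Of the values of single named genes under these alternatives, 1139 kept direction and call, 364 kept the direction and lost the call and 5 reversed. The cause of these shifts was not tested. No paired analysis was possible because the MULTI-seq barcodes carry no replicate number that is shared between genotypes, and the blocks used were run for genotype and the sample for classes. At E9.5 the difference of mutants from controls in summed UMIs per thinned cell (−2.41 S, −2.19 G2/M) was −3.32 to −1.74 and −2.91 to −1.002 when 1 sample was left out, and that of Top2a (47.3 CPM) 24.4 to 90.8. Cells of run 3 were shallower and several samples held few cells, and the part of depth in the number of calls was not tested.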
